A study of Mus musculus with 5 samples.

Results

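The *Bach2* locus was taken here as the *Bach2* gene body and the 100 kb on either side of it, and its members were all DNase I-hypersensitive peaks with a summit in that window. The window held 36 of the 31116 peaks called in WT and 27 of the 25525 peaks called in dKO naïve CD8+ T cells. Peaks of both lists that overlapped by at least 1 bp were joined, which gave 39 regions, 23 of them present in both lists, 13 in WT only and 3 in dKO only. *Bach2* (ENSMUSG00000040270.9) lies on the plus strand of chromosome 4, from 32325779 to 32673083 in the mm9 build, and is 347.305 kb long. The window ran from 32225779 to 32773083. Positions below are distances of the summit from the start of transcript Bach2-001 in kb, and negative values lie upstream.

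The data came from DNase-seq, in which DNase I cuts open chromatin and the released fragments are sequenced. WT cells were from *hCD2-Cre*+ Rosa26 GFP mice with intact *Tcf7* +/+ and *Lef1* +/+ alleles, and dKO cells were from *hCD2-Cre*+ Rosa26 GFP mice with *Tcf7* fl/fl and *Lef1* fl/fl alleles, labelled Tcf1-/-Lef1-/-. Both groups thus carried the Cre transgene and the GFP reporter, were on the C57BL/6 background, were 6 to 12 weeks old and included both sexes. Splenic GFP+ TCRbeta+ CD62Lhi CD44lo-med CD8+ cells were sorted, with GFP marking cells in which Cre had acted because excision by this Cre line was not complete. The 3 WT and 2 dKO replicates were pooled by the authors before peaks were called, so each genotype had 1 list. No spread between replicates could be computed, and no test between genotypes was made. In such bulk pools, fewer cells with an open site and less cutting per cell cannot be told apart.

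*Bach2* encodes a BTB and bZIP transcriptional repressor. It pairs with the small Maf proteins Mafk, Mafg and Maff, binds sites that resemble those of AP-1 factors, and is known to hold lymphocytes in a naïve or memory-like state, in part by repressing *Prdm1*, which encodes Blimp-1. Tcf1 (gene *Tcf7*) and Lef1 are HMG-box factors of T cells that bind DNA with the core ATCAAAG. The comparison of the lists asked where at *Bach2* open chromatin was found with and without these 2 factors.

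The sequences around 8 summits are shown to describe the letters at these places. The first 6 are the regions with the largest drop in rank from the WT to the dKO list, the next is the *Bach2* promoter, and the last, chosen after its values were seen, holds the single ATCAAAG match within 100 bp of a summit. Each is 201 bp of the mm9 plus strand centred on the WT summit. Capitals mark matches, on either strand, to ATCAAAG, the AP-1 sequence TGANTCA, the Runx sequence TGTGGT and the Ets sequences CAGGAAG or CCGGAAG. None of them lies in a *Bach2* exon. The +321.7 kb sequence overlaps the last exon of the noncoding antisense transcript BC024582.
+321.7 kb, intron 4, chr4:32647351-32647551, plus strand: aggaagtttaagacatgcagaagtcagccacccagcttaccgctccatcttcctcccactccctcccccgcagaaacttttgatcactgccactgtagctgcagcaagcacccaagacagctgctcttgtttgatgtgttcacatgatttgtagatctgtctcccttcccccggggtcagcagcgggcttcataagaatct
+185.0 kb, intron 3, chr4:32510701-32510901, plus strand: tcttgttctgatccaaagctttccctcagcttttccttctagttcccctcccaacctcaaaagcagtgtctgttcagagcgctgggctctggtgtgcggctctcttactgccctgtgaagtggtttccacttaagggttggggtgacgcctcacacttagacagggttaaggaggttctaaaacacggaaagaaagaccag
+52.9 kb, intron 1, chr4:32378573-32378773, plus strand: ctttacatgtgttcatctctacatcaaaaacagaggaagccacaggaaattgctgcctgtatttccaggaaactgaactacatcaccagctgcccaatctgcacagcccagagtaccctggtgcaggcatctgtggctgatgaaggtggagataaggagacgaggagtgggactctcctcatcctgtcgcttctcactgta
+105.7 kb, intron 2, chr4:32431345-32431545, plus strand: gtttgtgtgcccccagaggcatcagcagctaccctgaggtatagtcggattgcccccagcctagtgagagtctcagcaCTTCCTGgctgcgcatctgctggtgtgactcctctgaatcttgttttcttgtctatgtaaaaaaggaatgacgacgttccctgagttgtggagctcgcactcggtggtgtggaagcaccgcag
+41.8 kb, intron 1, chr4:32367465-32367665, plus strand: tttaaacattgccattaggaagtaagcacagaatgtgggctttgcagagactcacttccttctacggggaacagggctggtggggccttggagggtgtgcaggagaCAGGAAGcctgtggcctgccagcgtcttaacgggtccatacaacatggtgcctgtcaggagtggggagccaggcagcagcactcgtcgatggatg
+10.5 kb, intron 1, chr4:32336176-32336376, plus strand: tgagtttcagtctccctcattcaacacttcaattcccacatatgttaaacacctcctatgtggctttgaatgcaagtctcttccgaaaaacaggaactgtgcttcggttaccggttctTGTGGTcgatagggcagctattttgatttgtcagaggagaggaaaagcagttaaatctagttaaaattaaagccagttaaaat
-0.1 kb, promoter, chr4:32325553-32325753, plus strand: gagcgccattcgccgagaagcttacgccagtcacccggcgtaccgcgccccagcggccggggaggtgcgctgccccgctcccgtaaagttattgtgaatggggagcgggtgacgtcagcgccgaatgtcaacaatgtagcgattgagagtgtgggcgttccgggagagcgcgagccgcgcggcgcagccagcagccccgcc
+105.2 kb, intron 2, chr4:32430893-32431093, plus strand: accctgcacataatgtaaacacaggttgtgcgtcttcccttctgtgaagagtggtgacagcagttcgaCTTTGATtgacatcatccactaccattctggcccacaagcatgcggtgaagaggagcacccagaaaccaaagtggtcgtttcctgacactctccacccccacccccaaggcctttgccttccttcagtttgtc

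Depth differed between the pools, with 83923734 fragments kept in WT and 62242963 in dKO, a dKO to WT ratio of 0.742. The pileup is the number of fragments over a summit, and its median was 54 over all WT peaks and 42 over all dKO peaks. Pileups of the lists were therefore compared in 2 ways. The first was the pileup percentile, the rank of a peak within its own list with 100 for the highest. The second was the dKO to WT ratio of pileup per fragment kept, given with a 95% exact interval that covers counting error only. Over all 21606 shared regions of the genome the median ratio was 0.916, with 0.871 at promoters and 0.974 at regions more than 1 kb from any TSS. As a check of identity, all 10 CD8 T cell markers examined had a promoter peak in WT, at percentiles of 32.9 to 88.6. In dKO 9 did, at 23.4 to 72.1, and *Cd3d* had none. All 10 markers ranked lower in dKO, with *Cd3d* counted as 0 there, and 67.2% of all shared regions of the genome ranked lower in dKO too. No promoter of *Cd4*, *Zbtb7b* or *Foxp3* had a peak, and of 10 B cell, myeloid and NK cell markers only *Itgam* had one, in WT at percentile 25.5.

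The *Bach2* window was densely covered with peaks in both lists. It held 6.58 WT peaks and 4.93 dKO peaks per 100 kb, against 1.25 and 1.03 over chromosome 4. Of the 36 WT peaks, 26 were in the gene body, and of the 27 dKO peaks, 16. Counted by the same window rule, 13 of 22367 protein-coding genes had more WT peaks than *Bach2* and 21 had more dKO peaks, where the median gene had 5 and 4. Some of these genes are neighbours whose windows share peaks. Gene length enters such counts, and among 954 genes with a body of at least 200 kb, 4 had more WT peaks than *Bach2* against a median of 3. Per 100 kb of window, 9.29% of all genes were at or above *Bach2* in WT and 12.5% in dKO.

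The peaks were spread unevenly along the gene. Bach2-001 has 7 exons, and intron 1 (78.108 kb) held 12 regions and intron 2 (100.13 kb) held 11. Intron 3 (84.029 kb) held 1, intron 4 (59.91 kb) held 2, intron 5 (11.872 kb) held 1 and intron 6 (4.37 kb) none. The 8 regions upstream and 4 downstream of the gene made up the rest. The longest stretch of the gene body without a peak in either list was 136.368 kb, from +185.2 to +321.5 kb. The peaks nearest to the window on the outside had summits at -111.8 kb, with pileups of 86 in WT and 44 in dKO, and at +529.5 kb in WT with 53 and +529.4 kb in dKO with 37. Just inside, the first and last regions at -90.1 and +418.3 kb had pileups of 50 and 134 in WT and 33 and 96 in dKO.

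**Figure D1:**
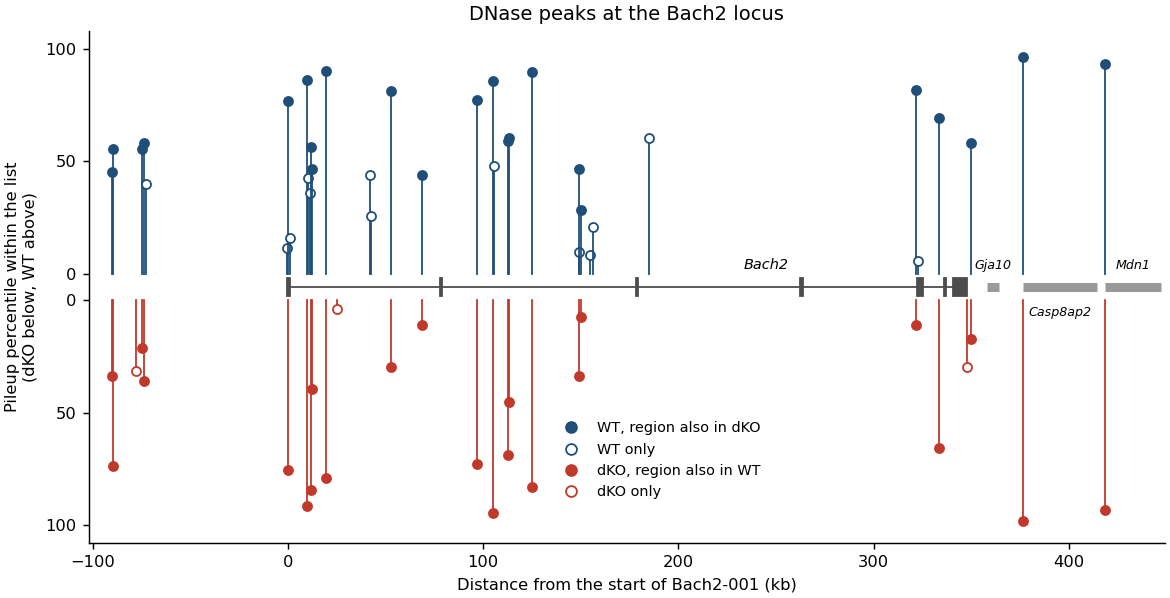
Peaks of the *Bach2* locus by distance from the start of Bach2-001 (x axis, kb) and pileup percentile within the list (y axis, WT upwards and dKO downwards). Filled points are regions found in both lists and open points regions found in 1 list. The strip in the middle shows the *Bach2* exons and the neighbouring genes. The 13 open WT points and 3 open dKO points and the gap of 136.368 kb in the second part of the gene can be seen.

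The peaks of the locus spanned a wide range of heights in both lists. WT pileups ran from 23 to 153 with a median of 59, and dKO pileups from 18 to 132 with a median of 36. Their median ranks were percentile 55.4 among all WT members and 39.6 among all dKO members, which are different sets of peaks. Over the 23 shared regions the medians were 60.2 in WT and 65.6 in dKO, and ranked among ChrAcc sites alone the members had medians of 55.0 in WT and 53.8 in dKO. Each of these medians was taken within 1 list. Compared region by region, 16 of the 23 shared regions ranked higher in WT, as did 67.2% of all shared regions of the genome. The median difference over the 23, WT minus dKO, was 6.82. Median widths were 232.5 and 216 bp, and the peaks covered 9807 bp of the window in the WT list and 6786 bp in the dKO list. Most members met the criteria of the study for a ChrAcc site (4-fold enrichment or more with p below 1e-05 and q below 0.05). Among WT members 29 (80.6%) did and 7 did not, against 91.5% of all WT peaks. Among dKO members 24 (88.9%) did and 3 did not, against 95.4% of all dKO peaks.

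Of the 36 WT peaks, 13 (36.1%, 95% Wilson interval 22.5 to 52.4) had no overlapping dKO peak. Over all WT peaks this share was 30.1%, over those on chromosome 4 29.9%, and over those more than 1 kb from a TSS 37.1%. Among the 27 members more than 1 kb from a TSS it was 11 (40.7%), where peaks of the same pileup deciles would have given 8.58. The share at *Bach2* was thus near that of other distal peaks. Of the 27 dKO peaks, 3 (11.1%, interval 3.85 to 28.1) had no WT peak, against 14.0% of all dKO peaks and 20.7% of distal ones.

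At the start of the gene, the promoter was open at a like rank in both lists. The promoter peak at -0.1 kb, with its WT summit 126 bp and its dKO summit 106 bp from the TSS, had a pileup of 87 in WT and 63 in dKO. Its percentiles were 77.0 and 75.8, and its ratio was 0.976 (interval 0.695 to 1.37). On either side of it lay a low peak found in WT only. The peak at -0.4 kb had 27 fragments (percentile 11.3), the peak at +1.1 kb had 30 (15.9), and neither met the criteria for a ChrAcc site.

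Other annotated starts differed in this respect. Of the 9 *Bach2* transcripts, 4 start within the first 9.0 kb and had a peak within 1 kb in both lists, and the remaining ones start at +178.6, +262.7 or +336.1 kb and had none in either. The start at +178.6 kb, shared by 2 protein-coding transcripts, had its nearest WT summit 6391 bp away and its nearest dKO summit 28641 bp away. That WT summit was the WT-only peak at +185.0 kb described below.

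A cluster of 5 WT peaks lay within 2.775 kb of intron 1, beginning next to the start of the noncoding transcript Bach2-004. The first and highest, at +9.7 kb, had 107 fragments in WT and 89 in dKO, at percentiles 86.1 and 91.5 and a ratio of 1.12. The region at +11.6 kb had 60 fragments in WT and 75 in dKO, at percentiles 56.4 and 84.5. Its ratio of 1.69 (1.18 to 2.41) was the highest of the locus and stood at percentile 97.3 of all shared regions. The region at +12.3 kb had 51 and 36 fragments and a ratio of 0.952, and it met the criteria in neither list. Between these shared regions, WT alone had peaks at +10.5 kb (48 fragments, percentile 42.6) and +11.1 kb (43 fragments, percentile 35.8), both of which missed the criteria.

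The stretch that held this cluster had a raised fragment density, its own peaks included. The lists were called without a control, so the background of a peak came from the same pool and held the fragments of the peaks themselves. The part of these fragments in the raised value was not tested. The local background that the peak caller had used, recovered from the deposited pileup and fold enrichment, was 2.83 to 2.85 times the genome floor in WT and 3.03 to 3.13 times in dKO. Only 1.83% of dKO peaks had a value as high as the lowest of these. The medians of the lists were 1.31 and 1.23. Fold enrichment, which divides by this background, therefore ranked the cluster far lower than pileup did, at percentiles of 1.95 to 50.9 in WT and 1.07 to 51.4 in dKO. A background over 2 times the floor was found at 12 of the 36 WT members, against 14.0% of all WT peaks, and at 5 of the 27 dKO members, against 11.6% of all dKO peaks. Of the 23 shared regions, 20 had a lower background fold in dKO, as did 76.1% of shared regions of the genome.

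**Figure D2:**
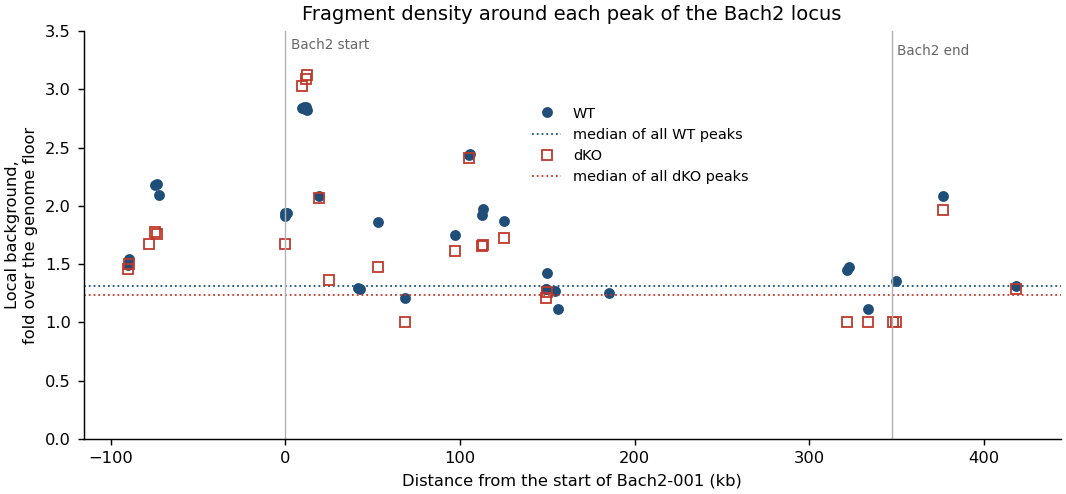
Local background around each peak (y axis, fold over the genome floor of its pool) by distance from the start of Bach2-001 (x axis, kb). It was taken from the same pool and includes the fragments of the peaks. Filled circles are WT peaks, open squares dKO peaks, dotted lines the medians of all peaks of each list (1.31 and 1.23), and vertical lines the ends of the gene. The cluster near +10 kb reached 2.83 to 2.85 in WT and 3.03 to 3.13 in dKO.

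Further into intron 1, WT peaks outranked their dKO counterparts. The region at +52.9 kb, whose sequence is shown above, had 96 fragments in WT and 31 in dKO, at percentiles 81.4 and 29.6. Its ratio of 0.435 (0.281 to 0.659) was at percentile 0.629 of all shared regions and 0.984 of distal ones, and its interval lay below the genome median. The peak was 391 bp wide in WT and 312 bp in dKO with summits 28 bp apart. At +68.6 kb WT had 49 fragments and dKO 22, at percentiles 44.0 and 11.0, and the ratio of 0.605 (0.349 to 1.02) had an interval that spanned the median.

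The region at +19.5 kb, which lies inside the noncoding gene Gm11932, was the highest WT peak within *Bach2*. It had 121 fragments in WT and 67 in dKO, at percentiles 90.4 and 79.0, and its ratio was 0.747 (0.545 to 1.01). Intron 1 also held WT-only peaks at +41.8 kb (49 fragments, percentile 44.0) and +42.7 kb (36 fragments, percentile 25.5). The nearest dKO peaks were 10761 and 9764 bp from them. A low dKO-only peak at +25.1 kb (18 fragments, percentile 3.91) missed the criteria.

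In intron 2 no shared region had an interval below the genome median. The highest in WT, at +125.1 kb, had 119 fragments in WT and 73 in dKO, with a ratio of 0.827 (0.609 to 1.12). At +97.0 kb the pileups were 88 and 60 with a ratio of 0.919, at +112.7 kb 63 and 56 with 1.2, and at +113.3 kb 64 and 39 with 0.822. The intervals of all 4 ratios spanned the genome median. Toward the end of the intron lay 2 lower shared peaks, at +149.2 kb with 51 and 33 fragments and at +150.0 kb with 38 and 20. Around them, WT alone had peaks at +148.9, +154.6 and +156.2 kb, with 26, 25 and 33 fragments.

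The region at +105.2 kb, which holds the ATCAAAG match, ranked higher in dKO. It had 106 fragments in WT and 100 in dKO, at percentiles 85.6 and 94.6, and its ratio of 1.27 (0.958 to 1.69) had an interval above the genome median. The region is distal, and the interval spanned 0.974, the median of distal shared regions. The summits were 126 bp apart. The match lies from 26 to 32 bp before the WT summit on the minus strand and is printed above as its complement CTTTGAT. A WT-only peak at +105.7 kb, with 52 fragments and percentile 47.7, began 90 bp from the end of this dKO peak and would be joined to it by a rule that bridges gaps of up to 100 bp.

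Introns 3 and 4 held the regions that separated the lists most. At +185.0 kb, the only region of intron 3, WT had a peak of 64 fragments and 224 bp at percentile 60.2, and the nearest dKO peak was 34775 bp away. It was the highest WT-only peak of the locus. At +321.7 kb, in intron 4 and within the antisense noncoding gene BC024582, WT had 97 fragments and dKO 22. The percentiles were 81.9 and 11.0.

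The +321.7 kb region thus had the lowest ratio of the locus, 0.306 (0.183 to 0.490), at percentile 0.0926 of all shared regions and 0.148 of distal ones. Its peak was 307 bp wide in WT and 99 bp in dKO, where the shortest peak of the whole dKO list was 97 bp. The local background there was 1.45 times the floor in WT and at the floor in dKO. By fold enrichment the percentiles were 84.8 and 20.6, and by -log10 p they were 83.6 and 15.2. The low WT-only peak at +322.6 kb, with 23 fragments and percentile 5.41, missed the criteria. In intron 5 the peak at +333.5 kb, 590 bp from the start of BC024582, had 75 and 53 fragments, percentiles of 69.2 and 65.6 and a ratio of 0.953.

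Upstream of the gene, the peaks formed groups near -90 and -74 kb. The region at -89.5 kb had 59 fragments in WT and 61 in dKO, at percentiles 55.4 and 74.0, and its ratio of 1.39 (0.958 to 2.03) had an interval above the genome median. Its neighbour at -90.1 kb had 50 and 33 fragments and a ratio of 0.890. These summits were 440 and 1035 bp from the start of the pseudogene Gm11928.

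The group near -74 kb was lower in dKO. The WT peak at -74.7 kb was the widest of the locus, 810 bp, with 59 fragments at percentile 55.4. In dKO it overlapped 2 peaks of 216 and 213 bp with 27 and 25 fragments, the higher one at percentile 21.3. The ratio was 0.617 (0.376 to 0.989), with an interval that spanned the genome median. At -73.7 kb the pileups were 62 and 34 with a ratio of 0.739. A WT-only peak lay at -72.5 kb (46 fragments, percentile 39.8), and a dKO-only peak at -77.8 kb (32 fragments, percentile 31.7).

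Downstream of *Bach2*, the region at +349.6 kb had 62 fragments in WT and 25 in dKO, at percentiles 58.4 and 17.2. Its ratio of 0.544 (0.327 to 0.878) had an interval below the genome median. A dKO-only peak lay near it at +348.0 kb, with 31 fragments at percentile 29.6. The remaining 2 regions were promoters of neighbouring genes and had the highest WT pileups of the window. At +376.4 kb, 267 bp from the start of *Casp8ap2*, the pileups were 153 and 132 and the percentiles 96.6 and 98.5. At +418.3 kb, 37 bp from the start of *Mdn1*, they were 134 and 96, and both percentiles were 93.6. In dKO the +105.2 kb region of intron 2, with 100 fragments, stood above the *Mdn1* promoter.

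Over the 23 shared regions, 16 ranked higher in WT and 7 in dKO, where 67.2% of all shared regions ranked higher in WT. The median difference in percentile, WT minus dKO, was 6.82, against 4.74 over all shared regions. Ranked among distal peaks only, 13 of 16 distal shared members were higher in WT, with a median difference of 16.1. Of the distal shared regions of the genome, ranked among all peaks, 58.8% were higher in WT, with a median difference of 2.91. Over all 23 members the median ratio was 0.890, or 1.02 with the median of shared promoter regions set to 1, and the ratios ran from 0.306 to 1.69. This median ratio was near the genome median of 0.916, and both mix promoter and distal regions. Over distal shared regions of the genome the median was 0.974. Among the 16 distal shared members, the ratio was above 0.974 at +11.6, +105.2 and +112.7 kb and below it at all others. Ratios of all shared regions of the genome ran from 0.603 to 1.5 between the 5th and the 95th percentile. Intervals of the ratio lay below the genome median at 3 regions (+52.9, +321.7 and +349.6 kb), against 5.57% of all shared and 5.20% of distal shared regions, above it at 3 (-89.5, +11.6 and +105.2 kb), against 7.85%, and spanned it at 17. Summits lay within 30 bp of each other at 15 of the shared regions of the locus, and the dKO peak was the narrower one at 18. These counts were not made over the genome, where the median width of all peaks was 198 bp in WT and 187 bp in dKO.

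**Figure D3:**
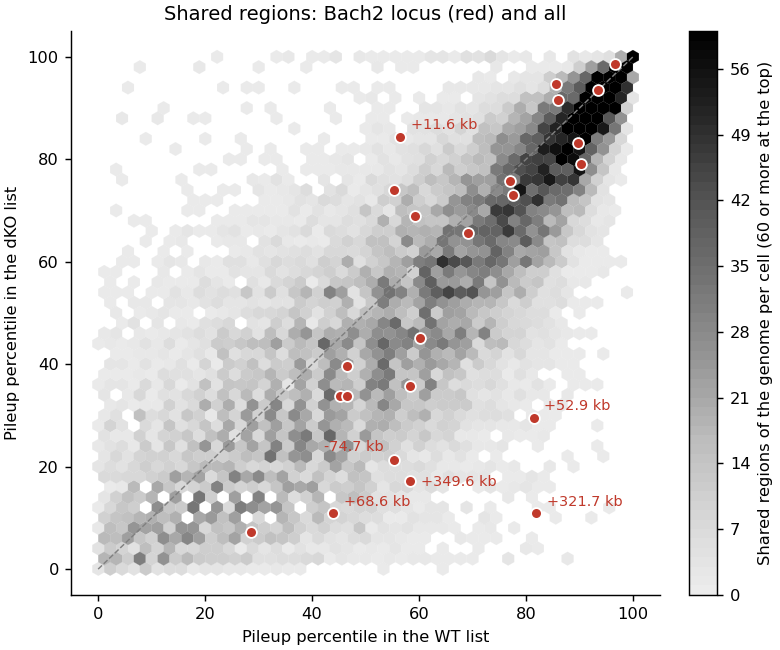
Pileup percentile in the WT list (x axis) and in the dKO list (y axis) of the 23 shared regions of the *Bach2* locus (red points) over all shared regions (grey, darker where more regions fall). The dashed line marks equal rank, and labels give the position in kb. The +321.7 kb region lies at 81.9 and 11.0 and the +52.9 kb region at 81.4 and 29.6, both far below the line, and the +11.6 kb region at 56.4 and 84.5 lies above it.

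**Figure D4:**
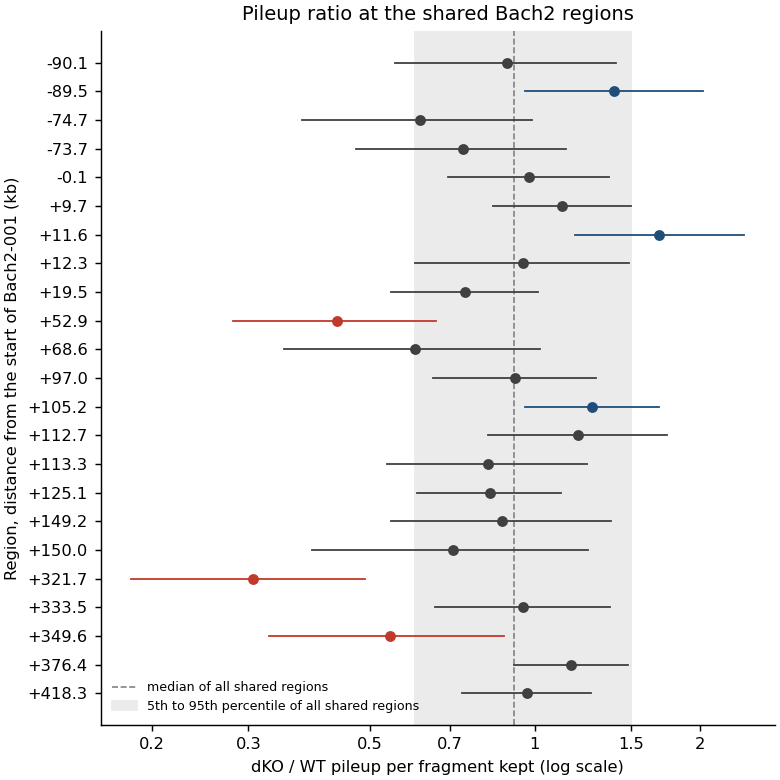
Ratio of dKO to WT pileup per fragment kept (x axis, log scale) at the 23 shared regions in order of position (y axis, kb from the start of Bach2-001), with 95% exact intervals for counting error. The dashed line is the median of all shared regions, 0.916, and the grey band runs from their 5th to their 95th percentile, 0.603 to 1.5. Red marks the 3 regions with an interval below the median and blue the 3 with an interval above it.

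The 13 WT-only peaks had pileups of 23 to 64 with a median of 36, at a median percentile of 25.5. Of these 13, 7 met the criteria for a ChrAcc site, against 91.5% of all WT peaks, shared ones included. The share among all WT-only peaks of the genome was not computed, so the 7 cannot be called few for such peaks. Scaled to the depth of the dKO pool, the WT pileup was above the number needed for a peak there at all 13. It was at least 2 times that number at 2 of them. At +185.0 kb the scaled pileup was 47.5 against 15 needed, and at +322.6 kb 17.1 against 17. The part that the lower depth of the dKO pool had in the absence of these peaks from the dKO list was not tested.

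Short sequences at the summits were searched within 100 bp on both strands. ATCAAAG was found at 1 of 36 WT summits and 1 of 27 dKO summits, both in the +105.2 kb region, against 3.88% of all WT and 2.44% of all dKO peaks, or 5.22% and 3.07% of distal ones. It was at none of the 13 WT-only summits. The shorter CTTTGA, which overlaps it, was found at 5 WT and 3 dKO members, against 15.0% and 12.3% of all and 19.1% and 15.2% of distal peaks. The AP-1 sequence TGANTCA was found at 5 WT and 3 dKO members, against 6.22% and 6.40% of all and 8.15% and 8.49% of distal peaks. For the Runx sequence TGTGGT the counts were 8 (22.2%) and 7 (25.9%), against 21.9% and 23.2% of all and 29.6% and 32.0% of distal peaks. The Ets sequences were found at 10 and 10, against 25.9% and 26.4% of all and 25.9% and 25.8% of distal peaks. Such a match is a description of the letters, and in the sequences above the regions at +321.7, +185.0 and +52.9 kb have none of the capitalised ones.

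Among other genes, those whose counts of peaks in the 2 lists and in 1 list only were nearest to *Bach2* (36 WT, 27 dKO, 13 WT-only and 3 dKO-only peaks) were *Sp100* with 36, 29, 11 and 4, and *Akap13* with 36, 29, 9 and 2. Likeness was the Euclidean distance over these 4 counts, 3 for *Sp100* and 4.58 for *Akap13*. The next were Gm13152, Gm17019 and *Prrc2a*, at distances of 7.55 to 7.94.

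The network around Bach2 was counted by the same rule for 26 genes. WT had more peaks than dKO at 20 of them, dKO had more at 3 (*Maf*, *Fosl2* and *Prdm1*), and the counts were equal at 3. Of the 22 listed genes with at least 10 peaks summed over both lists, 18 had more in WT, against 70.5% of the 11258 protein-coding genes with as many. Among the partners and relatives, *Bach1*, the closest paralog, had 14 WT and 9 dKO peaks, and the small Maf genes *Mafk*, *Mafg* and *Maff* had 5, 16 and 10 in WT and 4, 13 and 8 in dKO. Among AP-1 genes, *Batf*, which encodes a partner of Irf4 in effector T cells, had 8 and 4. *Irf4* itself had 16 WT and 6 dKO peaks, with 10 of the 16 found in WT only. *Prdm1*, the known target of repression by Bach2, had 6 and 7, and *Ets1* had 25 and 22. Over the list, 81 of 326 WT peaks (24.8%) lacked a dKO peak, against 30.1% of all WT peaks, and 20 of 267 dKO peaks (7.49%) lacked a WT peak, against 14.0% of all dKO peaks. The median share of WT-only peaks per gene was 22.6%, against 25% over all genes with a WT peak and 36.1% at *Bach2*.

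**Figure D5:**
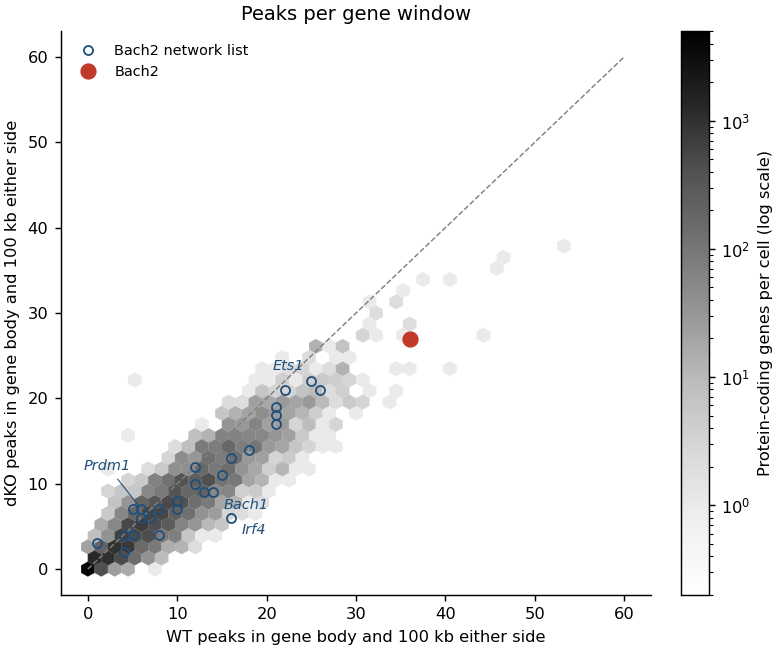
WT peaks (x axis) and dKO peaks (y axis) in the body and 100 kb either side of each protein-coding gene, shown as grey cells (darker where more genes fall, log scale). The dashed line marks equal counts and 6 genes with over 60 peaks are outside the axes. *Bach2* (red) lies at 36 and 27, beyond all 26 genes of its network list (blue circles), of which *Irf4* lies at 16 and 6.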

How the data were processed

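DNase-seq libraries of 3 WT and 2 dKO replicates were aligned to mm9 and pooled per genotype by the authors. Per the labels Bowtie2 2.2.5 and MACS2 2.1.1 were used. Per the file headers MACS2 was run in paired-end mode without a control, with p of 1e-05 and local background windows of 10000 bp. The header of each list names 2 input files, a duplicate-removed one and its sorted copy, and at most 1 fragment per position was kept (83923734 of 167847468 in WT and 62242963 of 124485926 in dKO).

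The deposited pileup is a signal, the number of fragments over the summit, not scaled to depth. As a ratio, the deposited fold enrichment divides pileup plus 1 by local background plus 1, and the deposited -log10 p and -log10 q are the authors' MACS2 test values. Local background was solved from the first 2, which gave back the deposited -log10 p within 0.00013 at 99% of WT peaks.

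Genes came from the GENCODE annotation of NCBIM37, the same assembly as mm9, and sequences from that genome. Every region was named. Those described at most length were found in 1 list only, had the 5 largest differences or 5 highest percentiles, or were nearest to a *Bach2* TSS. Sequences followed the largest drops in percentile, with 0 for no peak. The members and lists were chosen with earlier results of these data known. Alternatives covered which peaks count, the window, the overlap, the measure ranked, the scaling and the motif window. Python 3.11.15, pandas 2.3.3 and scipy 1.17.1 were used, and the scripts were tested on simulated data. Nothing in the labels says that replicates were separate animals.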

Additional observations from a re-analysis of the deposited data

How the results depend on the processing

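With fold enrichment of at least 8 the locus held 13 WT and 11 dKO peaks, with 4 WT peaks lacking a dKO peak (against 25.9% of WT peaks of the genome), and with the 20000 strongest peaks of each list it held 22 WT peaks, 5 of them without dKO (against 19.7%). With q under 1e-10, 12 of 30 WT peaks had no dKO peak (against 30%). With the criteria for a ChrAcc site, 7 WT peaks had no dKO peak, where 27.6% of all WT sites had none. In the gene body alone there were 26 WT peaks, 11 of them without dKO, against 30.1% of all and 37.1% of distal WT peaks. There were 16 dKO peaks, 1 of them without WT, against 14.0% of all and 20.7% of distal dKO peaks. The median percentile over WT regions, 55.4, became 39.3 by fold enrichment, 46.2 by -log10 p and 57.5 among distal peaks. Over dKO regions it was 42.3, with several dKO peaks of a region counted as the highest, and became 36.9, 36.6 and 41.2, and 53.8 among ChrAcc sites. The median difference of 6.82 over the 23 shared regions became 12.5 by -log10 p. Over the 16 distal shared regions, ranked among distal peaks, the median difference was 16.1. There the set of regions changed as well as the ranking. The median ratio of 0.890 became 0.972 with the genome median set to 1, and turned to 1.02 with the promoter median set to 1. ATCAAAG was in 2 WT peaks over the whole peak (+105.2 and +154.6 kb) and in 0 dKO members within 50 bp, and CTTTGA in 5 WT and 3 dKO members. Of 84 differences of single regions under alternatives, 62 moved little, 17 moved and 5 changed sign, all of these near 0: -5.10 and -0.73 at -0.1 kb and -0.028 at +333.5 kb, and 0.50 and 0.18 at +418.3 kb, by fold enrichment and -log10 p.

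No paired analysis was possible because the replicates were pooled before peak calling, and for the same reason no replicate was left out in turn. Each list is 1 pool, so differences between them include any difference between the pools in digestion, depth or cells. The cause of the changes above was not tested.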
